A study of Mus musculus with 6 samples.

Results

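The Wnt ligands, receptors and antagonists measured in mouse mesenteric fat made up 53 of the 22134 genes in the deposited table. Members were chosen by symbol alone and not by their values: the Wnt genes, the Frizzled (Fzd), Lrp5 and Lrp6, Ror1 and Ror2 receptors, Rspo2 to Rspo4 with their receptors Lgr4 to Lgr6 and the ligases Znrf3 and Rnf43, the secreted antagonists of the Sfrp and Dkk families with Wif1, and Axin1 and Axin2. RNA was sequenced from adipose tissue of wild-type mice. Creeping fat, the mesenteric fat that wraps an injured bowel, came from 3 samples after repeated cautery injury of the colon. Mesenteric adipose tissue came from 3 control samples without injury. The sources used here do not give the animals' age, sex or strain, and none says whether each sample is a separate animal; p-values therefore reflect the spread among these 6 libraries alone, part of which may be technical.

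Wnt proteins are lipid-modified secreted ligands. In the beta-catenin branch they bring a Frizzled receptor together with the co-receptor Lrp5 or Lrp6, which stops the Axin complex from degrading beta-catenin and lets it act with TCF/LEF factors on target genes. Other branches, such as planar polarity and calcium signalling, pass through Frizzled with Ror receptors and do not need beta-catenin. Sfrp proteins and Wif1 bind Wnt proteins outside the cell, several Dkk proteins bind Lrp5 and Lrp6, and R-spondins keep Frizzled receptors at the surface. In fat, beta-catenin signalling is known for holding back the differentiation of adipocyte precursors.

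The question put to the libraries was which Wnt pathway transcripts injury-induced fat holds at other levels than healthy fat. Values are FPKM, a level per length of transcript and per size of library, so different genes can be compared, and library totals recovered from them ran from 31186018 to 43415696 reads. The groups also differed in markers of cell types and other tissues. All 10 adipocyte markers were detected in every library, 9 of them fell in creeping fat, and their summed level was 642 to 1454 FPKM there against 3438 to 9045 FPKM in controls. Of 10 fibroblast and progenitor markers 7 rose (5377 to 6686 against 748 to 1115 FPKM summed), and of 8 macrophage markers 6 rose (2601 to 4595 against 608 to 1084 FPKM). All 9 seminal vesicle markers in the table rose, from at most 55.0 FPKM summed in controls to 16401 to 31570 FPKM in creeping fat, and of 6 tested prostate markers 4 rose and 1, Mme, fell (1.77 to 2.84 against 7.19 to 14.4 FPKM), with Defb50 and 9530002B09Rik at 0 in every control. Of 16 tested exocrine pancreas markers 12 fell, with 15690 to 40000 FPKM summed in controls, 5433 FPKM in creeping fat 2 and 16.4 and 29.0 FPKM in creeping fat 3 and 1. Control 2 and creeping fat 2 stood apart from their groups on principal components 2 and 3. In bulk tissue fewer cells of a type and less RNA per cell cannot be told apart, and the part of these markers in the results below was not tested.

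Creeping fat held more transcripts of the Fzd1, Fzd2 and Ror receptors and of most tested genes grouped here, by family name, as secreted antagonists. It held fewer of Wnt2b, Fzd4 and Sfrp5, the most abundant ligand, Frizzled and Sfrp gene of control fat. A gene was tested where it reached 1 FPKM in at least 3 of the 6 libraries, with limma on log2(FPKM + 1), and called at a Benjamini-Hochberg adjusted p under 0.05 over all 12812 genes tested. Of 53 members 34 were tested, 16 rose, 3 fell and 15 did not pass. Over all tested genes 9.35% were called higher and 6.81% lower. The median log2 fold change, creeping fat minus control, was 0.50 over the 34 members and 0.02 over all tested genes. The 2 groups did not overlap in 25 of the 34 members, 20 higher and 5 lower in creeping fat. Over all tested genes 20.2% lay higher without overlap, 16.9% lower and 37.0% either way. Dkk2 and Dkkl1 reached 1 FPKM in creeping fat libraries only, so both could pass the filter only by being high there. Among controls Wnt2 reached it in control 2 alone (1.33 FPKM), and Wnt4 in control 2 and 3 alone (2.61 and 1.22 FPKM). Their controls could not meet the filter without creeping fat libraries either. The calls of Dkk2, Dkkl1, Wnt2 and Wnt4 therefore add no weight to the count of rises. Fzd3 and Wnt5b, higher without overlap but not called, also needed creeping fat libraries to pass. Of the 19 calls 12 held under each of the 17 other settings tried, which left out libraries or changed the filter, scaling or model.

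**Figure D1:**
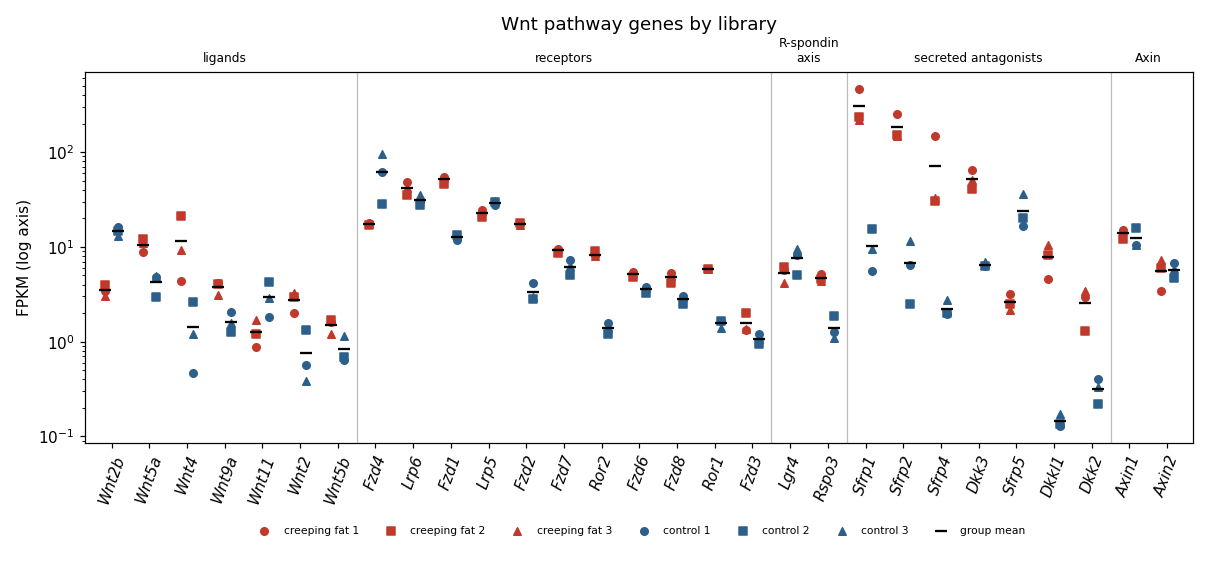
FPKM on a log axis of the 29 members that were called, did not overlap between groups or were among the 2 most abundant of their role, by library (symbols) with group means (black bars). Sfrp1 lies between 220 and 460 FPKM in creeping fat and at most 15.4 FPKM in controls, while Wnt2b, Fzd4 and Sfrp5 are lower in every creeping fat library.

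Among the ligands the leading transcript differed between the groups. Of 19 Wnt genes 9 were tested. Wnt4, Wnt5a, Wnt2 and Wnt9a rose, Wnt2b fell, and the median of the 9 was 0.46. Over all tested genes 9.35% were called higher and 6.81% lower. Wnt2 and Wnt4 could pass the filter only with creeping fat libraries, so their calls add no weight to the count. Wnt2b, a ligand that can act through beta-catenin, measured 3.44, 3.93 and 3.04 FPKM in creeping fat libraries 1 to 3 and 16.3, 14.8 and 13 FPKM in controls 1 to 3. Every control library was far above every creeping fat library, and Wnt2b fell by 1.81 ± 0.15 on the log2 scale (SE; limma adjusted p = 0.00119). It supplied 45.4% to 55.4% of the summed Wnt FPKM in controls and 7.80% to 11.9% in creeping fat, shares that do not depend on a library's scaling.

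Wnt5a, the best known ligand of the branch that runs without beta-catenin, stood at 8.90, 12 and 10.9 FPKM in creeping fat and 4.87, 2.98 and 4.88 FPKM in controls. Its groups did not overlap, and it rose by 1.16 ± 0.21 (adjusted p = 0.0123). The ratio of Wnt5a to Wnt2b FPKM within a library was 2.58, 3.05 and 3.58 in creeping fat and 0.299, 0.202 and 0.374 in controls. Wnt4, a ligand known from kidney and female genital tract development, had the widest spread of the called ligands within creeping fat, at 4.34, 21.1 and 9.18 FPKM, against 0.471, 2.61 and 1.22 FPKM in controls. The groups did not overlap, creeping fat 2 held by far the highest level, and Wnt4 rose by 2.22 ± 0.55 (adjusted p = 0.0367). Creeping fat 2 was also the creeping fat library highest in mesothelial markers (139 FPKM summed against 77.4 and 71.5 FPKM in creeping fat 1 and 3). The controls ran the other way. Control 2, the control highest in Wnt4, was the lowest in these markers (25.5 FPKM against 98.0 and 84.5 FPKM in control 1 and 3). Of 8 mesothelial markers 2 were called higher and none lower, and the part of these cells in the Wnt4 level was not tested.

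Wnt2, a canonical ligand known from lung development, stood at 2.00, 2.99 and 3.29 FPKM in creeping fat and 0.567, 1.33 and 0.386 FPKM in controls, and rose by 1.11 ± 0.25 (adjusted p = 0.0263). Wnt9a, known from joint formation, stood at 4.21, 4.04 and 3.10 FPKM against 2.06, 1.27 and 1.57 FPKM and rose by 0.86 ± 0.18 (adjusted p = 0.0205). Neither gene's groups overlapped, and control 2 was the control library nearest to creeping fat for Wnt2 and the farthest for Wnt9a. Wnt11, a ligand of the planar polarity branch, lay at 0.882, 1.22 and 1.69 FPKM in creeping fat below 1.83, 4.23 and 2.90 FPKM in controls without passing (-0.79 ± 0.26, adjusted p = 0.0890), and Wnt5b lay above its controls without passing (1.60, 1.70 and 1.22 against 0.646, 0.698 and 1.16 FPKM; 0.46 ± 0.18, adjusted p = 0.136). Wnt10b, known for restraining adipocyte formation, overlapped between the groups (0.983 to 2.41 against 0.659 to 1.71 FPKM), and so did Wnt6 (0.863 to 2.05 against 1.11 to 2.92 FPKM). The sum over all 19 Wnt genes was 28.9, 50.3 and 38.9 FPKM in creeping fat and 29.4, 32.6 and 28.5 FPKM in controls, so the sums overlapped while their makeup differed.

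Wnt2b was called under every other setting, and the 4 ligands that rose were not. Wnt5a missed the threshold without creeping fat 2 (1.07, adjusted p = 0.0509) or creeping fat 3 (1.13, adjusted p = 0.0572); Wnt9a without creeping fat 1 or 2 or control 3 (0.80 to 0.85, adjusted p from 0.0813 to 0.0945) or after quantile normalization (0.78, adjusted p = 0.0633); and Wnt2 without any library other than control 2 (0.96 to 1.27, adjusted p from 0.0531 to 0.103). Wnt4 missed it without creeping fat 2 (1.70, adjusted p = 0.0769), creeping fat 3, control 1 or control 3 (adjusted p up to 0.121) and by limma's voom on recovered reads (3.09, adjusted p = 0.0515) or with no filter (adjusted p = 0.0716). Wnt11 passed without control 1 (-1.01, adjusted p = 0.0497) and after quantile normalization (-0.88, adjusted p = 0.0275).

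Frizzled genes encode the membrane receptors that bind Wnt proteins, and the leading one changed from Fzd4 to Fzd1. Of the 14 receptor and co-receptor genes 12 were tested, 5 rose (Fzd1, Fzd2, Fzd8, Ror1 and Ror2), Fzd4 fell and 6 did not pass, with a median of 0.49. Over all tested genes 9.35% were called higher and 6.81% lower. The promoters of the leading pair are shown because the 2 receptors moved in opposite directions, and those of Ror1 and Ror2 because both rose with little spread. Each line gives the 250 bases before the RefSeq start in GRCm38.p6, 5′ to 3′ on the gene's strand, at chr5:4758217-4758466 (minus strand), chr7:89404116-89404365 (plus strand), chr4:100095541-100095790 (plus strand) and chr13:53286125-53286374 (minus strand). Capitals mark matches on either strand, overlapping ones included, to the GC box spelled GGGCGG, the CCAAT box, the TATA box spelled TATAAA and the TCF/LEF core spelled CTTTGAA or in its other form CTTTGAT.
Fzd1: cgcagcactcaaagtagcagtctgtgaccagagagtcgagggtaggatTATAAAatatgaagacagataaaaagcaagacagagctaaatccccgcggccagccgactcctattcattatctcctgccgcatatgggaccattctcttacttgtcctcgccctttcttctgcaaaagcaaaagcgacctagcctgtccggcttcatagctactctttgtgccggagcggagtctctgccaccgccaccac
Fzd4: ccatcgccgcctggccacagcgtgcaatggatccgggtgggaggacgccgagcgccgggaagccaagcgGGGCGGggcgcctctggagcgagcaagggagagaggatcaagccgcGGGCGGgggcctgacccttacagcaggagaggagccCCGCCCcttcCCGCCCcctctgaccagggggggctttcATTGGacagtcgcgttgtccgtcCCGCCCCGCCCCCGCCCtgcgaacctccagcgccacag
Ror1: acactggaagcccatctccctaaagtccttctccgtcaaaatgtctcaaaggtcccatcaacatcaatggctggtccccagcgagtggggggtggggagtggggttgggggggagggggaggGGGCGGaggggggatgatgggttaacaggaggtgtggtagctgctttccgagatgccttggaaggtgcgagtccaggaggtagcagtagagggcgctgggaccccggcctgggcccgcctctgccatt
Ror2: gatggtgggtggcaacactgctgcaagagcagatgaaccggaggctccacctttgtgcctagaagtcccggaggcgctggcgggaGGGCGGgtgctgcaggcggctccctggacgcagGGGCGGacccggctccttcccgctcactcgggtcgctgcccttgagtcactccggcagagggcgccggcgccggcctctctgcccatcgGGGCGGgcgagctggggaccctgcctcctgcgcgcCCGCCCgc
The Fzd1 window holds 1 TATA box match and no GC box match at a GC content of 51.2%, and the Fzd4 window 7 GC box matches and 1 CCAAT box match at 72.8%. The Ror1 window holds 1 GC box match at 62.4%, and the Ror2 window 4 at 73.2%. None of the 4 windows holds either form of the TCF/LEF core. Of all 32851 promoter windows of this length 32.7% hold a GC box match, 33.8% a CCAAT box match, 12.4% a TATA box match, 4.46% CTTTGAA and 3.21% CTTTGAT.

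Fzd1 stood at 55.0, 46.5 and 52.9 FPKM in creeping fat and 11.9, 13.4 and 13.2 FPKM in controls, and rose by 1.92 ± 0.13 (adjusted p = 0.000690). The libraries of each group lay close together and far from the other group. Fzd2, a near relative of Fzd1, stood at 17.7, 17.7 and 17.0 FPKM against 4.12, 2.85 and 2.95 FPKM and rose by 2.11 ± 0.16 (adjusted p = 0.000846). Fzd4, which also serves as the receptor of norrin in blood vessel growth, stood at 17.9, 17.2 and 17.8 FPKM in creeping fat and 62.3, 28.2 and 94.7 FPKM in controls. Its creeping fat libraries were nearly equal, its control libraries were widely spread, and it fell by 1.59 ± 0.40 (adjusted p = 0.0393). Within the summed Frizzled FPKM the share of Fzd1 was 44.3% to 46.7% in creeping fat and 10.1% to 21.7% in controls, and that of Fzd4 15.0% to 16.4% and 45.8% to 72.4%. The sum over the 10 Frizzled genes overlapped between the groups (105 to 119 against 61.6 to 131 FPKM). Of 6 blood endothelial markers 2 fell, and their summed level was 168 to 219 FPKM in creeping fat and 249 to 281 FPKM in controls; control 2, the control lowest in Fzd4, was the highest in these markers and the lowest in adipocyte markers, and the part of either cell type in the Fzd4 level was not tested.

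The other Frizzled genes differed less. Fzd8 stood at 5.33, 4.12 and 4.94 FPKM in creeping fat and 3.07, 2.48 and 2.95 FPKM in controls, and rose by 0.59 ± 0.15 (adjusted p = 0.0400). Fzd7, which belongs to one subfamily with Fzd1 and Fzd2, did not pass at 9.54, 8.71 and 9.61 against 7.20, 5.09 and 6.25 FPKM (0.53 ± 0.15, adjusted p = 0.0632), nor did Fzd6 at 5.50, 4.87 and 5.30 against 3.76, 3.29 and 3.66 FPKM (0.45 ± 0.13, adjusted p = 0.0639). In both genes every creeping fat library lay above every control library. Fzd3, a receptor of planar polarity, lay at 1.33 to 1.99 against 0.936 to 1.20 FPKM (0.30 ± 0.17, adjusted p = 0.282), and Fzd5 overlapped (3.78 to 6.60 against 3.69 to 5.58 FPKM). Fzd9 and Fzd10 were under the filter, with at most 24 and 141 recovered reads; the 141 reads of Fzd10 were in control 2, against 7 to 35 in the other 5 libraries.

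Ror1 and Ror2 encode receptor tyrosine kinases that bind Wnt5a, and both rose. Ror2 stood at 7.93, 8.96 and 8.05 FPKM in creeping fat and 1.58, 1.21 and 1.38 FPKM in controls (1.97 ± 0.14, adjusted p = 0.000690). Ror1 stood at 5.80, 5.82 and 5.91 FPKM against 1.66, 1.66 and 1.38 FPKM (1.42 ± 0.13, adjusted p = 0.00169). Their groups lay far apart with little spread inside each group, and Ror2 was above Ror1 in all 3 creeping fat libraries (ratio 1.36 to 1.54) and below it in all 3 controls (0.729 to 0.998). The co-receptors Lrp5 and Lrp6 did not pass. Lrp6 stood at 48.0, 35.2 and 42.0 FPKM in creeping fat and 29.8, 27.8 and 35.7 FPKM in controls, overlapping by a narrow margin (0.41 ± 0.17, adjusted p = 0.161). Lrp5 lay lower in creeping fat without overlap, at 24.4, 20.7 and 23.8 against 27.7, 29.9 and 30.3 FPKM (-0.34 ± 0.13, adjusted p = 0.133). The ratio of Lrp6 to Lrp5 was 1.70 to 1.97 in creeping fat and 0.931 to 1.18 in controls.

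Fzd1, Fzd2, Ror1 and Ror2 were called under every other setting. Fzd4 was called without control 2 and with replicate 2 of both groups left out, but missed the threshold without any other single library (-1.21 without control 3, -1.50 to -1.60 otherwise, adjusted p from 0.0970 to 0.124) and with no filter (adjusted p = 0.0707), and Fzd8 missed it in 11 of the 17 settings (adjusted p up to 0.167, without creeping fat 1); Fzd6 and Fzd7 passed without control 2 (0.40 and 0.41, adjusted p = 0.0371 and 0.0365).

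**Figure D2:**
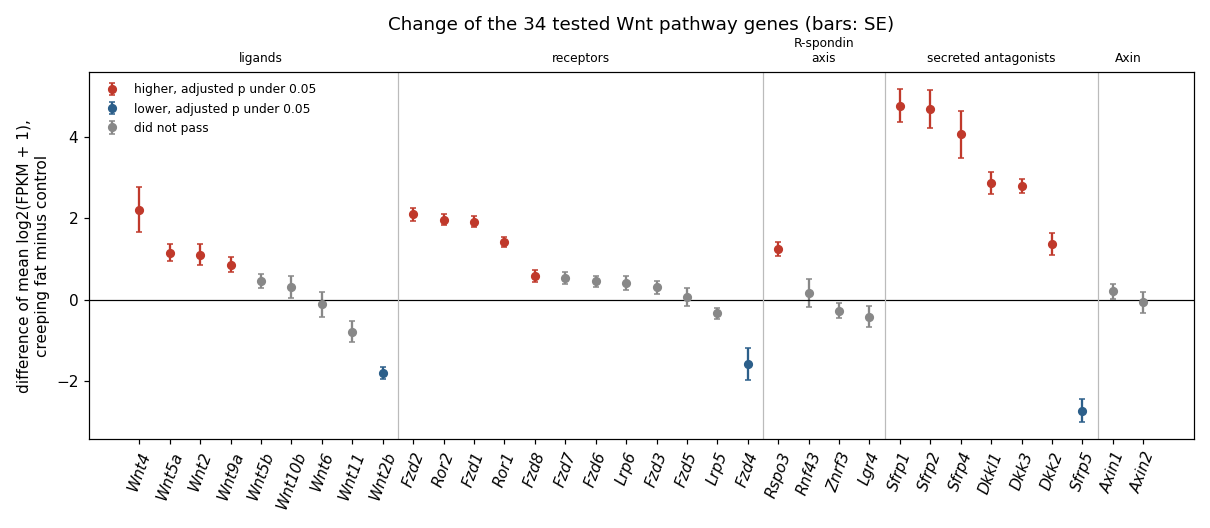
Change in log2(FPKM + 1) between the group means, positive where creeping fat is higher, with SE, for the 34 tested members by role. The largest rises, Sfrp1 at 4.78 and Sfrp2 at 4.70, and the largest fall, Sfrp5 at -2.74, are all secreted antagonists.

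In the R-spondin axis Rspo3 alone was called among 4 tested genes, where 9.35% of all tested genes were called higher and 6.81% lower. That count is too small to be read as a result about the axis. Rspo3, which binds the Lgr receptors and withdraws the ligases that clear Frizzled from the membrane, stood at 5.18, 4.56 and 4.32 FPKM in creeping fat and 1.27, 1.87 and 1.09 FPKM in controls. Every creeping fat library was above every control, and Rspo3 rose by 1.25 ± 0.17 (adjusted p = 0.00559). Its receptor Lgr4 was the most abundant gene of the axis and overlapped between the groups, at 5.71, 6.17 and 4.12 against 8.20, 5.01 and 9.61 FPKM (-0.42 ± 0.25, adjusted p = 0.321); it passed without control 2 (-0.66, adjusted p = 0.0274) and without replicate 2 of both groups (-0.75, adjusted p = 0.0184). Of the ligases, Znrf3 ran from 2.37 to 2.99 FPKM in creeping fat and 2.83 to 4.30 FPKM in controls and Rnf43 from 0.646 to 1.43 and 0.414 to 2.20 FPKM, and neither passed. Control 2 was the highest library for Znrf3, Rnf43 and Lgr6. It was also the highest in T and B lymphocyte markers, at 387 FPKM summed over 8 genes against 54.0 to 200 FPKM in the other 5 libraries, and the part of these cells was not tested.

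Lgr5, a receptor known as a mark of intestinal stem cells, was under the filter, at 0.787, 1.71 and 0.614 FPKM in creeping fat and 0.235, 0.252 and 0.0636 FPKM in controls, or 95 to 281 against 13 to 43 recovered reads. Its groups did not overlap. Voom on recovered reads, where 7.62% of genes with at least 10 reads in 3 libraries were called higher and 5.45% lower, placed it at 2.64 ± 0.73 (adjusted p = 0.0564), and limma with a pseudocount and filter of 0.1 FPKM at 1.96 ± 0.49 (adjusted p = 0.0423). The 8 intestinal epithelial markers summed to 154, 124 and 16.1 FPKM in creeping fat and 11, 62.4 and 77 FPKM in controls, and limma called 0 of 7 tested. Among them only Epcam was higher in every creeping fat library (13.1, 12.7 and 4.65 against 0.724, 3.98 and 2.26 FPKM). Each of the others overlapped between the groups, and Car1 was highest in control 3, at 34.6 FPKM. The part of these cells in the Lgr5 level was not tested. Rspo2, also under the filter, had 29, 8 and 6 recovered reads in creeping fat and 1 in each control, without overlap, and was not tested. Rspo4 had at most 4 reads in a library.

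The secreted antagonists held the largest changes. All 7 tested genes of the 10, grouped by family name and not by a measured activity, were called, beside 9.35% of all tested genes called higher and 6.81% lower. Sfrp1, Sfrp2, Sfrp4, Dkk2, Dkk3 and Dkkl1 rose, Sfrp5 fell, and their median was 2.88, the value of Dkkl1. Dkk2 and Dkkl1 could pass the filter only by being high in creeping fat, so their 2 calls add no weight to the count. Sfrp proteins carry a cysteine-rich domain like that of the Frizzled receptors and bind Wnt proteins. The promoter of Sfrp5, the 1 antagonist that fell, is shown and marked like those of the receptors, at chr19:42202253-42202502 (minus strand).
Sfrp5: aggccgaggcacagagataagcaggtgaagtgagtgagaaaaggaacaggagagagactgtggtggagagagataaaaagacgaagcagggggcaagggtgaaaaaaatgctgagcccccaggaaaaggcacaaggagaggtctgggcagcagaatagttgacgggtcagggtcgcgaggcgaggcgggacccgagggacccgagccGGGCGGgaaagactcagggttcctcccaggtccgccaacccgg
The Sfrp5 window holds 1 GC box match at a GC content of 59.6%. Of the 53 members 34 matched 38 promoter windows of the RefSeq table in GRCm38.p6, and a GC box match lay in 68.4% of these windows, a CCAAT box match in 28.9% and a TATA box match in 13.2%. CTTTGAA was found for Dkk1, and CTTTGAT for Wnt5b and Wnt11.

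Sfrp1 stood at 460, 232 and 220 FPKM in creeping fat and 5.63, 15.4 and 9.48 FPKM in controls, which made it the gene of abundance rank 85 to 199 in creeping fat libraries and of rank 4005 to 7075 in control libraries. It rose by 4.78 ± 0.41 (adjusted p = 0.00133). Sfrp2 stood at 255, 153 and 147 FPKM against 6.49, 2.48 and 11.5 FPKM and rose by 4.70 ± 0.47 (adjusted p = 0.00224). Sfrp4 stood at 148, 30.3 and 33.1 FPKM against 1.94, 2.00 and 2.76 FPKM and rose by 4.08 ± 0.58 (adjusted p = 0.00612), or by 3.35 without creeping fat 1, where it was still called. In all 3 genes creeping fat 1 was the highest library, most of all for Sfrp4, and the groups lay far apart. By size of change they ranked 18, 19 and 27 among the 1198 rises called.

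Sfrp5, known as an adipokine, went the other way, at 3.20, 2.49 and 2.16 FPKM in creeping fat and 16.7, 20.1 and 35.8 FPKM in controls, and fell by 2.74 ± 0.29 (adjusted p = 0.00258). It supplied 50.2% to 60.1% of the summed FPKM of the 4 Sfrp genes in controls and 0.370% to 0.596% in creeping fat, where Sfrp1 supplied 53.1% to 55.5%. The ratio of Sfrp1 to Sfrp5 FPKM was 93.3 to 144 in creeping fat and 0.338, 0.767 and 0.265 in controls. The 4 Sfrp genes together came to 866, 417 and 401 FPKM in creeping fat and 30.7, 39.9 and 59.6 FPKM in controls. Adipocyte and exocrine pancreas markers moved in the direction of Sfrp5, as given above. Fibroblast, macrophage, seminal vesicle and most tested prostate markers moved in that of the other Sfrp genes. Control 2 held less of the adipocyte markers than control 1 (3438 against 8907 FPKM summed) but more Sfrp5, while control 3 was highest in both. The part of any of these cells in the Sfrp levels was not tested.

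Dkk3, a divergent member of the Dickkopf family, stood at 64.1, 41.0 and 50.5 FPKM in creeping fat and 6.36, 6.23 and 6.85 FPKM in controls. The control libraries were nearly equal, and Dkk3 rose by 2.80 ± 0.18 (adjusted p = 0.000545). Dkkl1, a Dickkopf-like gene known from testis, stood at 4.61, 8.19 and 10.6 FPKM against 0.130, 0.135 and 0.174 FPKM, or 198 to 413 against 5 to 9 recovered reads. It rose by 2.88 ± 0.27 (adjusted p = 0.00171), which the added 1 FPKM understates: voom on the reads gave 5.53 ± 0.90 (adjusted p = 0.0100). Dkk2, which binds Lrp5 and Lrp6, stood at 2.99, 1.30 and 3.40 FPKM against 0.403, 0.221 and 0.330 FPKM and rose by 1.38 ± 0.27 (adjusted p = 0.0158). Dkkl1 and Dkk2 did not overlap between the groups and varied widely within creeping fat. For Dkkl1 creeping fat 1 was the lowest creeping fat library, as it was for the summed seminal vesicle markers (16401 FPKM against 31398 and 31570 FPKM), and the part of these cells in the Dkkl1 level was not tested.

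Wif1, a secreted Wnt inhibitor, was under the filter, at 0.777, 1.60 and 3.02 FPKM in creeping fat and 0.0230, 0.286 and 0.0205 FPKM in controls, or 63 to 222 against 2 to 20 recovered reads. Every creeping fat library was above every control, and voom on recovered reads placed it at 4.79 ± 1.25 (adjusted p = 0.0467). Dkk1 had 1 read in 1 library, and Dkk4 had 5 and 6 reads in control 1 and 2 and none in the other 4 libraries. Each antagonist called other than Dkk2 was called under every other setting; Dkk2 missed the threshold without creeping fat 1 (1.27, adjusted p = 0.0723), creeping fat 3 (1.20, adjusted p = 0.0620) or control 3 (1.39, adjusted p = 0.0640).

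**Figure D3:**
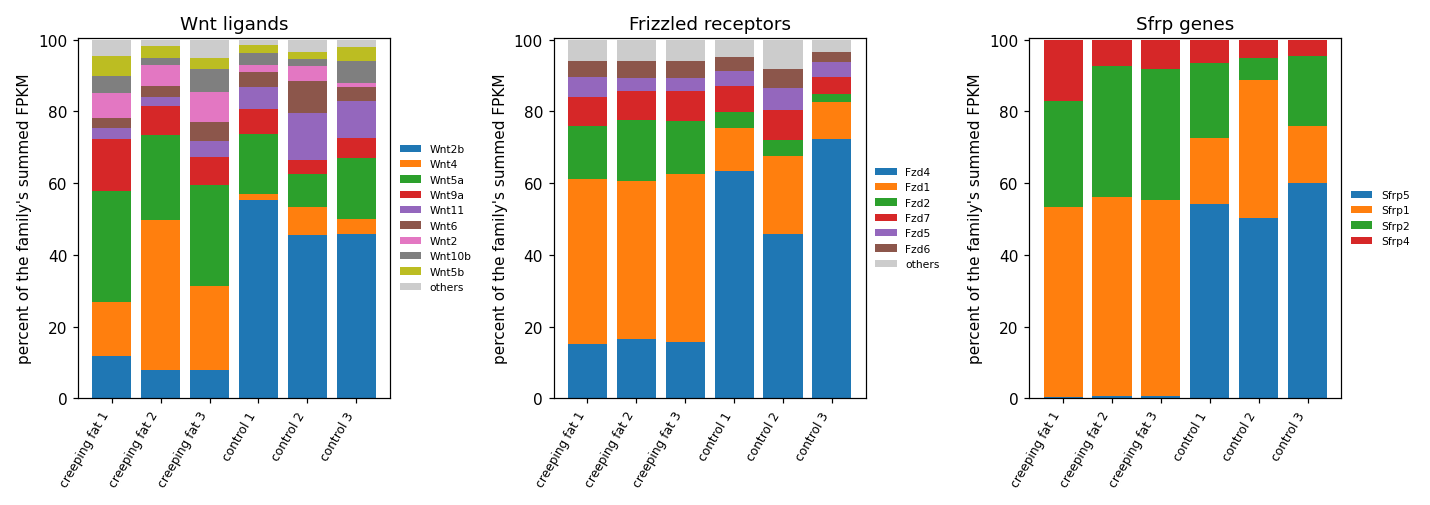
Percent of the summed FPKM of the Wnt ligands, Frizzled receptors and Sfrp genes that each gene supplied, by library; genes under 5% in every library are joined as others. Wnt2b, Fzd4 and Sfrp5 (blue) shrink from 45.4% to 55.4%, 45.8% to 72.4% and 50.2% to 60.1% in controls to at most 11.9%, 16.4% and 0.596% in creeping fat.

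Axin1 and Axin2, the scaffolds of the complex that degrades beta-catenin, did not pass. Axin2 is also induced by beta-catenin and is widely read as a gauge of that branch. It stood at 3.46, 6.05 and 7.28 FPKM in creeping fat and 6.82, 4.68 and 5.82 FPKM in controls (-0.07 ± 0.26, adjusted p = 0.892), so the groups overlapped, and the lowest and the highest library were both creeping fat. Its difference turned positive without creeping fat 1 (0.19) or control 1 (0.04). Axin1 stood at 15.0, 12.2 and 15.0 FPKM against 10.5, 15.7 and 10.6 FPKM (0.20 ± 0.19, adjusted p = 0.542), with control 2 the highest library, and passed with replicate 2 of both groups left out (0.47, adjusted p = 0.0387).

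Of the 53 members 19 were not tested, 10 of them Wnt ligands. Their highest value in any library was under 0.1 FPKM in 7 genes and under 1 FPKM in 15. The 4 that reached 1 FPKM somewhere were Lgr5, Wif1, Fzd10 and Wnt10a, the last at 1.20 FPKM in creeping fat 3 and 0.117 to 0.458 FPKM in the other 5 libraries. Wnt7b, a ligand of epithelia, had 14 to 43 reads in creeping fat and 0 to 7 in controls (voom 3.63 ± 1.14, adjusted p = 0.0819). Wnt16, known from bone, had 10 to 46 against 0 to 19 reads (voom 3.06 ± 1.39, adjusted p = 0.2). Wnt8b and Wnt9b had 2 to 61 reads in each library and overlapped. Wnt1, Wnt3, Wnt3a, Wnt7a and Wnt8a had at most 9 reads in a library, counts at which a difference was not detectable; the upper limit that a count of 0 allows, 3 reads, equals for a gene of 1 kilobase 0.0691 to 0.0962 FPKM in these libraries.

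Genes elsewhere in the pathway were read from 4 lists, which hold 83 tested genes counted once. Of these 18 rose, 2 fell and 63 did not pass, where 9.35% of all tested genes were called higher and 6.81% lower. In the list of Wnt secretion and other extracellular modulators 7 of 14 tested genes rose and 2 fell (median 0.59). Cthrc1, a secreted protein that binds Wnt and Frizzled, stood at 14.1, 32.3 and 8.65 FPKM in creeping fat and 0.508, 0 and 0.277 FPKM in controls and rose by 3.77 ± 0.44 (adjusted p = 0.00359). Serpinf1, which encodes a serpin that also binds Lrp6, rose by 2.72 ± 0.24 (adjusted p = 0.00138; 208 to 262 against 25.6 to 45.5 FPKM). Frzb, the Sfrp family member also called Sfrp3, stood at 8.56, 2.07 and 2.90 FPKM against 0.141, 1.01 and 0.292 FPKM and rose by 1.76 ± 0.45 (adjusted p = 0.0401), with creeping fat 1 the highest library as for the other Sfrp genes that rose. Apcdd1, a membrane inhibitor of Wnt signalling, fell by 1.79 ± 0.40 (adjusted p = 0.0273; 5.64 to 6.74 against 11.6 to 39.1 FPKM), and Sostdc1, a secreted antagonist of Wnt and BMP, fell by 1.18 ± 0.18 (adjusted p = 0.00803). Chosen after their values were seen, Wls and Porcn serve Wnt secretion: Wls, which carries Wnt proteins to the cell surface, rose (0.78 ± 0.18, adjusted p = 0.0303), and Porcn, which attaches their lipid, was not (0.17 ± 0.19, adjusted p = 0.632).

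Of 29 tested intracellular genes of the beta-catenin branch Ctnnb1, which encodes beta-catenin, rose by 0.63 ± 0.14 (adjusted p = 0.0256; 143 to 161 against 90.9 to 102 FPKM), the other 28 did not pass, and the median was 0.06. Of 16 tested target genes 6 rose and Apcdd1, which this list shares with the modulators, fell (median 0.81). Over all tested genes 9.35% were called higher and 6.81% lower. Ccn4, a matricellular gene also called Wisp1, rose by 3.81 ± 0.27 (adjusted p = 0.000690; 26.3, 30.4 and 14.5 against 0.723, 0.647 and 0.711 FPKM), Ephb3 by 2.37 ± 0.19 (adjusted p = 0.00109) and Nkd2, a feedback inhibitor, by 1.45 ± 0.23 (adjusted p = 0.00897). Lef1 and Tcf7, also named after their values were seen and factors of the branch that lymphocytes express too, did not pass and were highest in control 2, at 5.54 and 8.91 FPKM. In the planar polarity and calcium list 4 of 27 tested genes rose, none fell and the median was 0.17. That count is not far from the 9.35% of all tested genes called higher, so it is not read as a result about the branch. The 3 largest rises were Ptk7, a co-receptor of planar polarity (1.96 ± 0.19, adjusted p = 0.00217), Prickle1 (1.21 ± 0.14, adjusted p = 0.00372) and Nfatc4 (1.15 ± 0.25, adjusted p = 0.0227).

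Of the 18 rises 9 were called under every other setting, among them Cthrc1, Serpinf1, Ccn4, Ephb3, Nkd2, Ptk7 and Prickle1, and so was the fall of Sostdc1. Of the target genes counted as rises, Cd44 missed the threshold in 11 of the 17 settings and Ephb2 in 2. Ctnnb1 missed the threshold with any 1 library other than control 2 left out (0.58 to 0.67, adjusted p from 0.0560 to 0.127), Apcdd1 likewise (-1.85 to -1.45, adjusted p up to 0.0969), Nfatc4 likewise (0.97 to 1.16), Wls likewise (0.73 to 0.88), and Frzb without creeping fat 1 (1.27) or 3 or control 1 or 3. Frzb and Apcdd1 also missed it with no filter (adjusted p = 0.0739 and 0.0538), Frzb by voom (3.49, adjusted p = 0.0534) and Wls after quantile normalization (adjusted p = 0.0698). Cthrc1, Ccn4 and Tpbg, all counted among the rises, passed the filter only through creeping fat. Frzb, also counted there, reached 1 FPKM among controls in control 2 alone (1.01 FPKM), so it too needed creeping fat libraries to pass. Without replicate 2 of both groups the change of Cthrc1 was 3.12, still called.

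**Figure D4:**
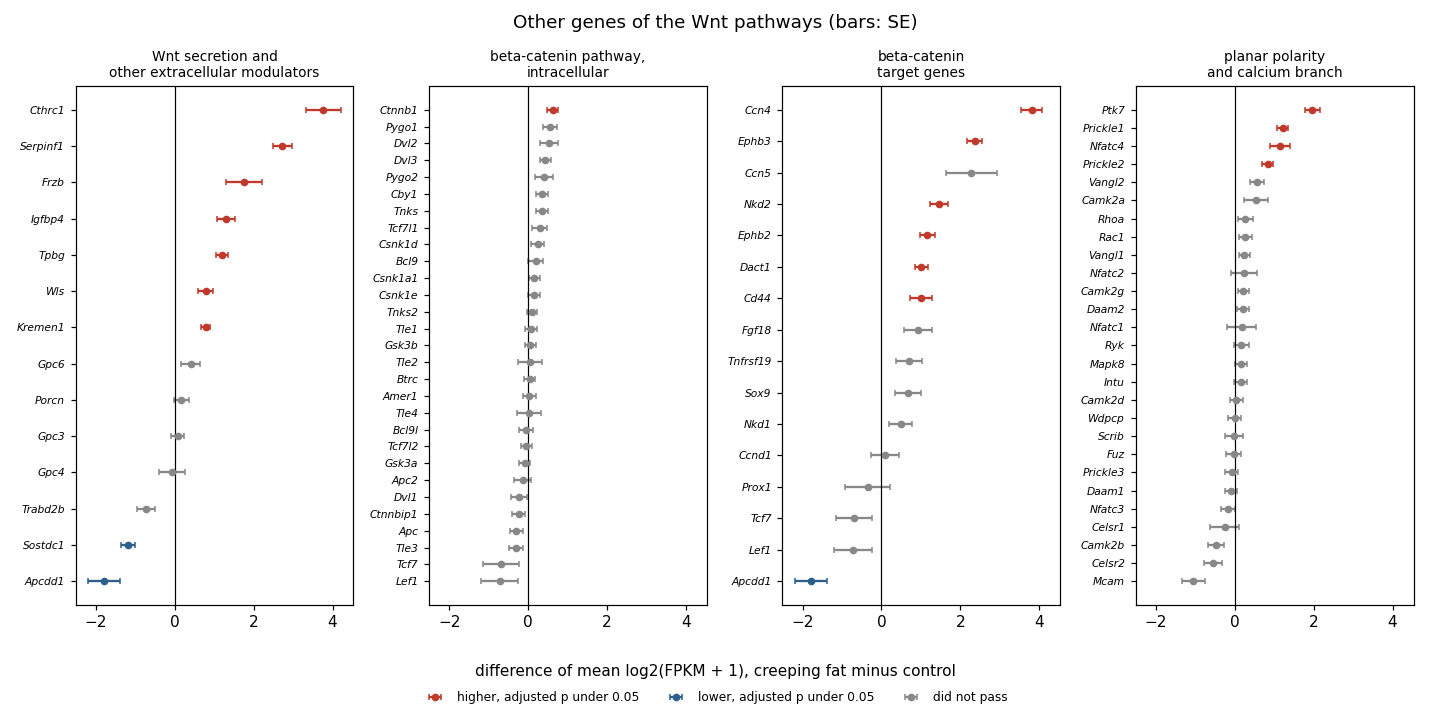
Change in log2(FPKM + 1) between the group means, positive where creeping fat is higher, with SE, for the tested genes of 4 lists of other Wnt pathway genes. Cthrc1 at 3.77 and Ccn4 at 3.81 lie farthest to the right, while 28 of the 29 intracellular genes of the beta-catenin branch did not pass.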

How the data were processed

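The authors deposited 1 table of FPKM, 6 libraries by 22134 gene symbols, without counts. Per the labels' protocols, libraries were stranded total RNA after ribosomal RNA removal. Per the submitters' processing notes the build was mm10; the sources used here do not give the aligner, counting program, annotation or strand setting, so reads of a gene and its antisense partner cannot be told apart (Sfrp2, Rspo3, Wnt5a, Wnt7b, Axin2, Fzd5, Fzd6 and Wnt11 share 3.2% to 17.8% of exon bases with a gene on the opposite strand in GENCODE M21).

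Groups came from the titles. The 12812 genes that reached 1 FPKM in 3 or more libraries entered a two-sided limma 3.58.1 fit (R 4.3.3) of log2(FPKM + 1) on group, with eBayes moderation (trend on) and p adjusted across all of them by Benjamini-Hochberg. The added 1 understates changes of low genes. Errors are SE. An exact permutation test of 3 against 3 cannot go below 0.1 and was not used. Whole reads within 0.003 were recovered from the FPKM for 18713 of 18714 genes above 0, as the smallest gene length giving whole reads (for genes under 50 reads, the one nearest the longest GENCODE transcript). These reads served the voom alternatives and depth. Scripts were tested on simulated data. Members called, members without overlap and the 2 most abundant of each role were named with every library's value; of other lists, up to 3 called genes a direction. Lgr5 and Wif1, under the filter, were given in full after their values were seen, as were the reads of Rspo2. Members and lists were chosen with earlier results of these data known. Promoter sequences are RefSeq's, GRCm38.p6. Alternatives are listed in the closing section.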

Additional observations from a re-analysis of the deposited data

How the results depend on the processing

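The settings tried were a pseudocount of 0.1, a filter of 0.1 FPKM, no filter, quantile normalization, rescaling without the gland and pancreas lists, no trend, voom, a replicate block and leaving out each library; leaving out replicate 2 of both groups, a filter and pseudocount of 0.1 together, and voom with at least 10 reads in 3 libraries were chosen after seeing the data. With 1 library left out, the 1198 genes called higher ranged from 576 to 2896 and the 872 called lower from 287 to 1857, the most without control 2, where the median of all tested genes moved from 0.02 to 0.13; the 16 members called higher ranged from 11 to 18 and the 3 lower from 2 to 4, and the 18 other pathway genes higher from 10 to 29 and the 2 lower from 1 to 4. Without replicate 2 of both groups the counts were 2713 and 1731 genes, 17 and 4 members, and 29 and 5 pathway genes. With the replicate block they were 636 and 378 genes, 12 and 2 members (Wnt2, Wnt5a, Wnt9a, Fzd4 and Fzd8 then missed the threshold), and 11 and 1 pathway genes. Same-numbered libraries did not deviate together (correlations -0.18, -0.18 and -0.08). The titles do not say whether the numbers pair the samples, and deviations from means of 3 libraries cannot settle it. Pathway genes called lower were 1 with no filter and 4 after quantile normalization. Of members not called, 4 changed sign with libraries left out: Axin2 (-0.27 to 0.19; positive without creeping fat 1 or control 1), Fzd5 (-0.15 to 0.20; negative without creeping fat 1 or control 2), Rnf43 (-0.04 to 0.55; negative without control 1, and at -0.03 without control 3) and Wnt6 (-0.28 to 0.17; positive without creeping fat 1 or control 2, and at 0.13 without replicate 2 of both groups). The cause of these shifts was not tested.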
